A study of Mus musculus with 60 samples.

Results

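Axon guidance molecules were followed across the cortex of 30 inbred mouse strains, with and without chronic treatment with the antidepressant fluoxetine, a blocker of serotonin reuptake. The genes were chosen by symbol: those starting with Sema, Plxn, Robo, Slit (not Slitrk), Ntng or Unc5, the Epha, Ephb, Efna and Efnb genes, and Ntn1, Ntn4, Dcc, Nrp1 and Nrp2. Of them, 71 had a probe set annotated with that symbol alone, and the brightest such probe set stood for the gene. The 62 genes with a log2 intensity of at least 4 in at least 6 of 60 arrays were analysed, among 11886 genes that met the same rule. Epha1, Epha2, Epha8, Ephb4, Efna4, Sema3b, Sema6c, Unc5cl and Plxna4os1 did not meet it, and Ephb2 had no probe set of its own. The 62 were 18 semaphorins, 11 plexins and neuropilins, 7 ephrins, 9 Eph receptors, 3 Slits, 4 Robos, 4 netrins, 5 netrin receptors and Unc50, a gene that the spelling of its symbol brought in and that is not a netrin receptor.

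Each strain gave 1 array of males that had received fluoxetine orally at 18 mg/kg per day for 21 days and 1 array of males on water (0 mg/kg), so each treatment had 30 arrays. The mice were 10 to 11 weeks old, and every array carried cortical RNA pooled from 3 animals of the same strain and treatment. No strain and treatment was measured more than once. The fluoxetine test therefore set the mean difference against the spread of the within-strain differences, which holds strains, pools and arrays together. In the strain test both arrays of a strain stood in for replicates, and they may share a processing batch. The comparisons of BTBRT T(+) tf/J and I/LnJ with the others were set against the spread between strains. BTBRT T(+) tf/J and I/LnJ, both known for the absence of the corpus callosum, were also set against the 28 other strains. In all 30 strains each array correlated best with the array of its own strain in the other treatment, with correlations of 0.52 to 0.85 between deviations from the group means over all genes. Array medians lay between 39.1 and 43.1 intensity units. Of 9 listed markers of cortical neurons 8 were measured, at mean log2 intensities of 9.48 to 15.67.

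Growing axons are steered by secreted and membrane-bound cues. Semaphorins signal through plexins, with neuropilins as co-receptors of the secreted class. Ephrins and Eph receptors signal between touching cells in both directions, Slits repel axons that carry Robo receptors, and netrins attract axons through DCC and repel them through UNC5 proteins. In the adult cortex the same molecules take part in the upkeep of synapses, dendritic spines and vessels, and during development netrin, Slit, semaphorin and Eph signals guide axons across the corpus callosum.

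With fluoxetine none of the 62 genes passed the test (limma with strain as a block, Benjamini-Hochberg adjusted p under 0.05 over all 11886 genes), where 0.0589% of all genes did. At an unadjusted p under 0.05 there were 18 of the 62 genes (29%), 10 higher and 8 lower with fluoxetine, beside 15.3% of all genes, 7.3% higher and 8% lower. An adjusted p under 0.1 was reached by 4 of the 62 genes (6.45%), Sema3a, Sema4a, Sema3g and Epha10, beside 1.64% of all genes. Each difference below is the log2 value with fluoxetine minus that on water. Their median was -0.006 over the 62 genes and -0.0029 over all genes, and 27 genes were higher and 35 (56.5%) lower, beside 53.1% of all genes lower. The median absolute difference was 0.05 over the 62 genes and 0.03 over all genes. The count of 18 varied with the strains included: it was 10 without C58/J, 10 without MA/MyJ and 11 without P/J. The share of all genes in these fits was not counted, so a change over all genes cannot be told apart.

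**Figure D1:**
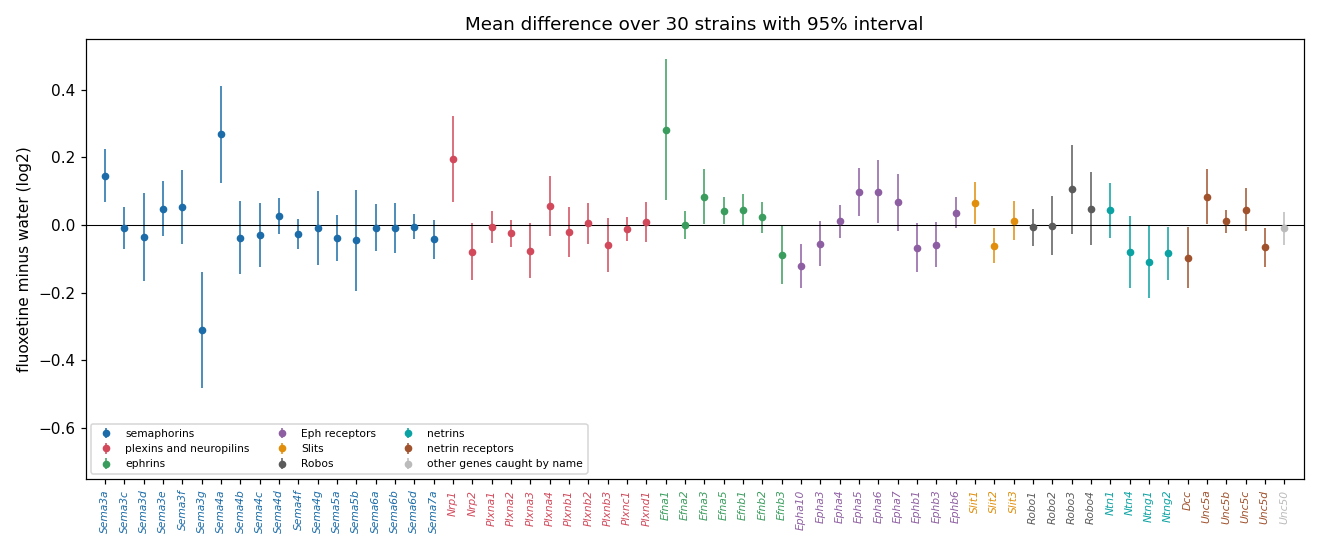
Fluoxetine minus water for each of the 62 axon guidance genes, as the mean over 30 strains on the log2 scale with its 95% interval, coloured by role. The mean differences run from -0.31 (Sema3g) to 0.28 (Efna1), and most intervals include 0.

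The promoters of the 4 genes with an adjusted p under 0.1 are shown because these genes stood nearest to the threshold. Each line gives the 250 bases before the transcription start in RefSeq (GRCm38.p6), 5′ to 3′ on the gene's strand. For Sema4a, which has 4 listed starts, the most upstream one was used. Capitals mark GGGCGG, the box bound by SP1, on either strand.
Sema4a, chr3:88461183-88461432, minus strand: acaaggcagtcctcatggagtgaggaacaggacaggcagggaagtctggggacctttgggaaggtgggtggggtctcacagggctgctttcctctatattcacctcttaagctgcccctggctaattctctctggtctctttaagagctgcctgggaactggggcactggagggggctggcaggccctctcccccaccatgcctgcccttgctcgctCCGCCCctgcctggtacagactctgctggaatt
Sema3a, chr5:13396534-13396783, plus strand: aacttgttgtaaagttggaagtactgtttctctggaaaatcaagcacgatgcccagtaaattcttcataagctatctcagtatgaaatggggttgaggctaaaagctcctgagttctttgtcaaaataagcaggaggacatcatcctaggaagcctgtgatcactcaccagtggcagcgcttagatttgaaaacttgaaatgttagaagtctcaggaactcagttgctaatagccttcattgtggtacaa
Sema3g, chr14:31217623-31217872, plus strand: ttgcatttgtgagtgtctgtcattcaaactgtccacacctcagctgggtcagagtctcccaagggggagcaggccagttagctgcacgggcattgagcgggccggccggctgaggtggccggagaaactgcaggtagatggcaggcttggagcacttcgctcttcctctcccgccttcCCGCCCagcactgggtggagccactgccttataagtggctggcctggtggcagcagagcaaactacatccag
Epha10, chr4:124881535-124881784, plus strand: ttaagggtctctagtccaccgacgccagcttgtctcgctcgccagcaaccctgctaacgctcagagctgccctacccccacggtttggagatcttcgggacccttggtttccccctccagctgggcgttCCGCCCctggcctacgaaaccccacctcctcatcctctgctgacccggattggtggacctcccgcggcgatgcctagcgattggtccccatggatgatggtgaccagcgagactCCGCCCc
GGGCGG was found 1 time in the Sema4a and Sema3g windows, 2 times in the Epha10 window and not in the Sema3a window. It was present in 72.1% of the 68 windows of the guidance genes and in 32.7% of all 32851 windows. Windows were listed for 53 of the 62 guidance genes. The 32851 windows were not limited to the 11886 genes analysed, so these shares set unlike groups of genes side by side. The cAMP response element TGACGTCA, its core TGACG and the E-box CACGTG, searched on both strands, had no match in these 4 windows. TGACGTCA was in none of the 68 windows of the guidance genes and in 1.55% of all windows. TGACG, which is also part of TGACGTCA, was in 8.82% and 17.8%, and CACGTG in 4.41% and 6.02%.

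Among the semaphorins 5 were higher and 13 lower with fluoxetine, and none passed the test. Sema4a, a membrane-bound semaphorin with roles in immune cells and in the retina, had a lowest, median and highest log2 intensity of 9.54, 10.15 and 11.61 in fluoxetine cortices, against 9.22, 9.95 and 10.42 in water cortices. The treatments overlapped widely, and the 2 highest fluoxetine arrays were those of P/J (11.61) and DBA/2J (11.31), whose water arrays had 9.78 and 10.34. The mean difference was 0.27 (SE 0.0707; higher in 24 of 30 strains; limma adjusted p = 0.0836), or 20.4%. The second probe set of the gene gave 0.19 (higher in 20 of 30), and without P/J the difference of the first was 0.21.

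Sema3a, a secreted repellent that acts through neuropilin 1 and class A plexins and is part of perineuronal nets, had 8.29, 8.99 and 9.80 in fluoxetine cortices, against 8.26, 8.91 and 9.28 in water cortices (lowest, median and highest log2 intensity). Its difference was 0.15 (SE 0.0383; higher in 22 of 30 strains; limma adjusted p = 0.0836), or 10.7%. The differences were spread over the panel, with 0.68 in MA/MyJ, 0.53 in P/J, 0.51 in I/LnJ and 0.48 in CBA/J at the upper end and -0.30 in LP/J at the lower. Sema3g, a secreted semaphorin known from endothelium, had 4.42, 5.32 and 6.18 in fluoxetine cortices, against 4.71, 5.56 and 6.55 in water cortices. These intensities are low, and the treatments overlapped over most of their range, with the fluoxetine arrays lower at both ends. Its difference was -0.31 (SE 0.0844; lower in 21 of 30 strains; limma adjusted p = 0.0874), or -19.3%, with -1.23 in RIIIS/J, -1.22 in MA/MyJ and -1.14 in P/J. The other semaphorins had differences between -0.05 (Sema5b) and 0.05 (Sema3f). Sema4f had a mean log2 intensity of 11.27 in fluoxetine and 11.29 in water cortices.

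**Figure D2:**
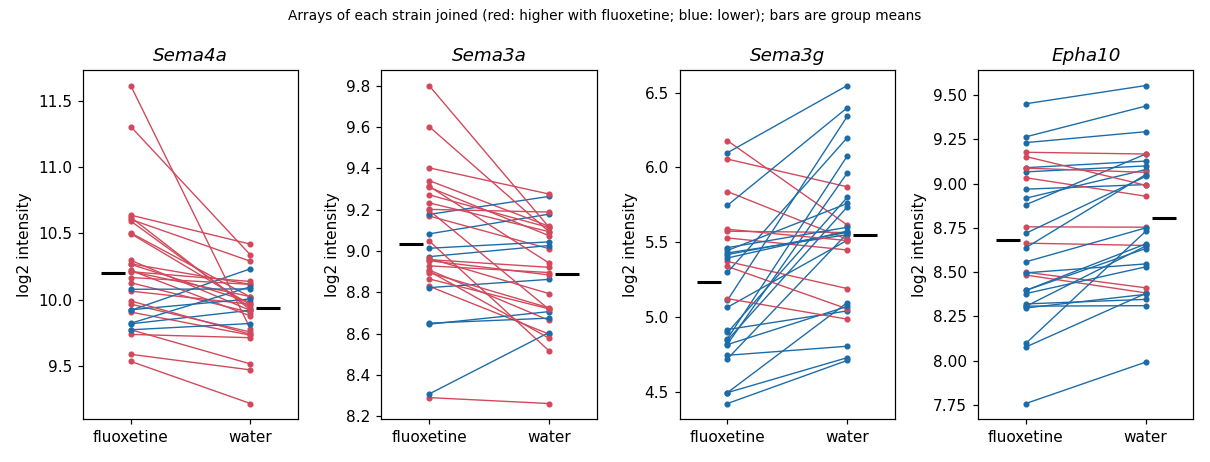
Log2 intensity of Sema4a, Sema3a, Sema3g and Epha10, with the fluoxetine and the water array of each strain joined (red where fluoxetine was higher, blue where it was lower) and bars at the group means. Sema4a was higher with fluoxetine in 24 of 30 strains, Sema3a in 22, Sema3g in 9 and Epha10 in 8.

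Of the plexins and neuropilins 4 were higher and 7 lower, none past the test. Nrp1, the co-receptor that binds class 3 semaphorins and VEGF, had a lowest, median and highest log2 intensity of 9.44, 10.05 and 10.86 in fluoxetine cortices, against 9.42, 9.88 and 10.23 in water cortices. Its difference was 0.20 (SE 0.0621; higher in 21 of 30 strains; limma adjusted p = 0.132), largest in P/J (1.12), C57BR/cdJ (0.97), C58/J (0.86) and DBA/2J (0.76). All 4 probe sets of Nrp1 gave a positive difference, between 0.12 and 0.20. Nrp2, the co-receptor preferred by Sema3f, gave -0.08 (limma adjusted p = 0.38), and the plexins lay between -0.08 (Plxna3) and 0.06 (Plxna4). Plxna2, a receptor of class 3 and class 6 semaphorins, had 11.18 in fluoxetine and 11.20 in water cortices.

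Of the ephrins 5 were higher and 2 lower with fluoxetine. Efna1, a membrane-anchored ligand of EphA receptors, had the largest positive mean difference of the 62 genes, 0.28 (SE 0.103; higher in 21 of 30; limma adjusted p = 0.177). In fluoxetine cortices it had 4.85, 5.37 and 7.72, against 4.77, 5.23 and 6.05 in water cortices (lowest, median and highest). DBA/2J (7.72 with fluoxetine and 5.14 on water) alone gave a difference of 2.58, and I/LnJ gave 1.36, while the medians lay close. Efna5 differed by 0.04 (higher in 23 of 30), Efna3 by 0.08 (higher in 19) and Efnb3 by -0.09 (lower in 21), all with a limma adjusted p of 0.29 to 0.31. Efnb2, a transmembrane ephrin, had 11.03 in fluoxetine and 11.01 in water cortices.

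Of the Eph receptors 5 were higher and 4 lower. Epha10, an EphA receptor without an active kinase, had 7.76, 8.65 and 9.45 in fluoxetine cortices, against 7.99, 8.75 and 9.56 in water cortices. Both treatments covered nearly the same range because strains differed far more than treatments. Its difference within strains was -0.12 (SE 0.0317; lower in 22 of 30; limma adjusted p = 0.0836), or -8.03%, and was largest in P/J (-0.63). Epha5, a receptor of A-type ephrins in forebrain neurons, gave 0.10 (SE 0.0343; higher in 19 of 30; limma adjusted p = 0.167), with 0.09, 0.08 and 0.01 on its other probe sets. Epha6 gave 0.10 (higher in 20 of 30), and Epha4, which binds ephrins of both classes, had 12.60 in fluoxetine and 12.59 in water cortices.

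Among the Slits and Robos, Slit2 gave -0.06 (lower in 18 of 30; limma adjusted p = 0.227) and Slit1 gave 0.06 (higher in 16, lower in 10 and equal in the other strains). The Robos lay between -0.01 (Robo1) and 0.11 (Robo3). Of the netrins and their receptors, Dcc, the attractive netrin receptor, gave -0.10 (SE 0.0446; lower in 20 of 30; limma adjusted p = 0.297). Ntng1, a membrane-anchored netrin that binds a postsynaptic partner on dendrites, gave -0.11 (SE 0.0527; lower in 20 of 30; limma adjusted p = 0.32). Its other probe sets gave 0.009, 0.005 and -0.08. Ntng2 gave -0.08, Unc5d -0.07 and Unc5a 0.08 (higher in 22 of 30), and Ntn1, the founding secreted netrin, gave 0.04 (higher in 16).

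On the probe sets used, the differences of Sema4a, Dcc and Ntng1 moved together over strains and most in P/J. P/J had 1.83 for Sema4a, -0.95 for Dcc and -1.23 for Ntng1, DBA/2J had 0.97, -0.50 and -0.56, and C58/J had 0.70, -0.47 and -0.62. In BUB/BnJ the signs were turned, with -0.28 for Sema4a, 0.45 for Dcc and 0.34 for Ntng1. Over 30 strains the correlation of these differences was -0.85 between Sema4a and Dcc (Spearman -0.66; -0.65 without P/J and DBA/2J). It was -0.81 between Sema4a and Ntng1 (Spearman -0.49; -0.50 without them), and 0.80 between Dcc and Ntng1 (Spearman 0.41; 0.58 without P/J and BUB/BnJ). They are descriptions chosen as the extremes of 1891 gene pairs, and both arrays of a strain enter every gene's difference.

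Markers of other cells and regions moved in some of the same strains. In P/J the mean fluoxetine minus water difference was -0.89 over 10 oligodendrocyte markers, 0.52 over astrocyte, 0.64 over microglia, 0.84 over striatum, -0.85 over thalamus and -2.13 over olfactory bulb and neuroblast markers. In DBA/2J it was 0.26 over astrocyte, 0.48 over microglia and 0.59 over striatum markers, but -0.17 over oligodendrocyte and 0.01 over thalamus markers. In BUB/BnJ it was -0.23 over microglia, 0.03 over astrocyte, -0.04 over oligodendrocyte and 0.22 over striatum markers. MA/MyJ, with a Sema4a difference of 0.65, had 0.04 over astrocyte and -0.05 over microglia markers. SM/J and MRL/MpJ, with the lowest oligodendrocyte marker differences of all (-0.92 and -0.91), had Sema4a differences of 0.29 and -0.003. Over 30 strains the Sema4a difference correlated with that of the astrocyte markers at 0.75 (0.49 without P/J and DBA/2J), of the microglia markers at 0.76 (0.37 without them) and of the oligodendrocyte markers at -0.43 (-0.29 without them). For Dcc it was -0.76 with astrocyte and -0.76 with microglia markers (-0.68 and -0.53 without P/J and BUB/BnJ). For Ntng1 it was -0.78 with both (-0.45 and -0.61 without P/J and C58/J). Over all strains 10 of 10 oligodendrocyte markers were lower with fluoxetine (median -0.22), 9 of them at an unadjusted p under 0.05 and none past the test. Their mean log2 intensity ran from 9.22 to 11.07 in fluoxetine and from 9.97 to 11.03 in water cortices. Microglia markers, 6 of 8 of them higher, ran from 8.80 to 10.15 in fluoxetine and from 8.71 to 9.56 in water cortices. Lower with fluoxetine were also 8 of 8 oligodendrocyte precursor markers (median -0.08) and 7 of 9 endothelium markers (median -0.04). In each list 3 had an unadjusted p under 0.05 and none passed the test. The endothelium mean differed by -0.32 in MA/MyJ, -0.17 in RIIIS/J and -0.10 in P/J, where Sema3g fell most. In C58/J it differed by 0.03, where Sema3g gave -0.90. In bulk cortex fewer cells of a type and less RNA per cell cannot be told apart, and the part of these markers in the guidance gene differences was not tested.

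**Figure D3:**
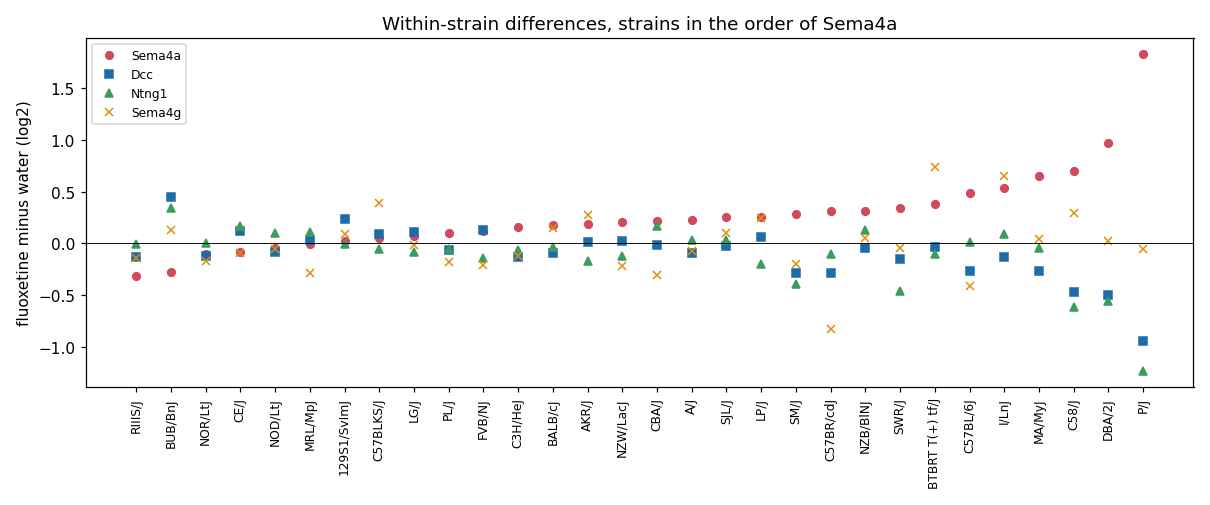
Fluoxetine minus water within each strain for Sema4a, Dcc, Ntng1 and Sema4g, on the log2 scale, with strains in the order of the Sema4a difference. P/J, at the right end, had 1.83 for Sema4a, -0.95 for Dcc and -1.23 for Ntng1, while the highest Sema4g differences were those of BTBRT T(+) tf/J (0.74) and I/LnJ (0.65).

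Most guidance genes differed between strains on the probe set used. Whether the probes match the sequence of every strain equally well was not checked. Of the 62 genes 56 (90.3%) differed between strains (F-test over strains in limma, adjusted p under 0.05), beside 88.3% of all genes, so the share was near that of the whole array. The range of strain means was at least 1 on the log2 scale for 21 genes (33.9%), beside 27.4% of all genes, with a median range of 0.93 and 0.68. An intraclass correlation over 0.9 was reached by 1 of the 62 genes (1.61%), Epha10 at 0.90, beside 5.68% of all genes. Efna1, Efna3, Unc5b, Unc50, Nrp1 and Sema4c did not pass the test.

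Among the semaphorins the widest ranges belonged to Sema3g, Sema4b, Sema3d, Sema5b, Sema4a and Sema4g. Sema3g had a lowest, median and highest strain mean of 4.57 (SM/J), 5.48 and 6.32 (NZB/BlNJ), a 3.38-fold range (limma adjusted p = 0.00124). Sema4b, a membrane-bound class 4 semaphorin, had 5.80 (FVB/NJ), 6.09 and 7.40 (SM/J). The SM/J value stood alone on both arrays, 7.61 with fluoxetine and 7.19 on water, and the next strain had 6.41. Without SM/J the Sema4b range was 0.62 and the strain test was not passed (limma adjusted p = 0.128). Sema3d, a secreted semaphorin, ran from 5.04 in NZW/LacJ to 6.58 in 129S1/SvImJ, a range of 1.55 that was 0.88 for the mean of its probe sets, while Sema5b ran from 4.91 in NOR/LtJ to 6.43 in SM/J (limma adjusted p = 0.0218; 0.0507 with no filter on low values). Sema4a ran from 9.38 in NZB/BlNJ to 10.82 in DBA/2J, and Sema4g from 6.96 in C57BL/6J to 8.35 in CE/J. Sema3f, measured near the filter, reached 4 in 7 fluoxetine and 6 water arrays and had its highest strain mean, 4.37, in P/J. Sema4f had a range of only 0.50, between 11.04 and 11.54.

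Plxna4, a receptor through which Sema3a and Sema6a act, had a lowest, median and highest strain mean of 8.61 (NZB/BlNJ), 9.62 and 9.96 (C57BL/6J; limma adjusted p = 1.31e-07). Low values were found in NZB/BlNJ, MA/MyJ (8.65) and C57BR/cdJ (8.87), and the next strain, BTBRT T(+) tf/J, had 9.18. The range was 1.35, and 0.78 for the mean of all Plxna4 probe sets, which also passed (limma adjusted p = 0.000199). The other Plxna4 probe set was dim, with a mean log2 intensity of 3.66, so averaging by itself narrowed the range. Plxna2 and Plxnc1 varied little, with ranges of 0.37 and 0.43, although both passed the strain test. Efna1 ran from 4.88 (SM/J) to 6.43 (DBA/2J) without passing it (limma adjusted p = 0.0597). Efna2 had a range of 0.36, with 1 value repeated on 19 of 60 arrays.

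Epha10 had a strain mean of 7.87 in A/J, a median of 8.71 and a highest value of 9.50 in NOR/LtJ (limma adjusted p = 4.25e-12). Both arrays of a strain gave nearly the same value: 7.76 with fluoxetine and 7.99 on water in A/J, and 9.45 with fluoxetine and 9.56 on water in NOR/LtJ. The next strains were SJL/J (9.35), NOD/LtJ (9.26) and AKR/J (9.17) at the upper end and C57BLKS/J (8.23) at the lower. Epha6 ran from 5.86 (FVB/NJ) to 7.05 (BUB/BnJ).

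Robo4, the Robo receptor of endothelium, had the widest range, 2.90 on the log2 scale (limma adjusted p = 4.29e-09). The range rested on 1 strain: C58/J had 3.30 with fluoxetine and 2.34 on water, against strain means of 4.87 to 5.72 in all others. The C58/J values lie under the filter level of 4 and near the floor of the arrays (2.07), where no exact fold can be given, and with a pseudocount of 16 the range was 1.56. Without C58/J the range was 0.86 and the test was still passed (limma adjusted p = 0.00762). The gene had a single probe set, and the mean of 9 endothelium markers was 8.31 in C58/J, near the middle of the panel, within a range of 8.03 to 8.70. Ntn4, a netrin of basement membranes, ran from 6.78 (DBA/2J) to 8.02 (NZB/BlNJ), a range of 1.23 that was 0.62 for the mean of its probe sets. Its other probe set had a mean log2 intensity of 2.27, near the floor, so averaging by itself narrowed the range. Unc5b, a netrin receptor of vessels, had the narrowest range, 0.28, at strain means of 4.57 to 4.85, but 46 of its 60 arrays held the same value, so differences between strains were barely resolved.

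Extreme values gathered in some strains. 129S1/SvImJ was the highest or lowest strain for 14 of the 62 genes (22.6%; 14.4% of all genes), with the highest Robo1 (10.51) and the lowest Sema3a (8.28). DBA/2J was so for 11 genes (17.7%; 7.97% of all genes), with the lowest Ntn4 and the highest Ntn1 (7.46), and NZB/BlNJ for 10 (16.1%; 9.78%). LG/J was so for 6 genes (9.68%), beside 15% of all genes, and P/J for 7 (11.3%; 10.9%). BTBRT T(+) tf/J was so for 3 genes (4.84%; 9.82%) and I/LnJ for 4 (6.45%; 5.53%). No test was made of these shares.

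BTBRT T(+) tf/J and I/LnJ are strains in which callosal axons are known not to cross the midline, which no array here measures. None of the 62 genes differed between both strains and the 28 others (limma on strain means, adjusted p under 0.05), beside 0.101% of all genes. At an unadjusted p under 0.05 there were 2 of the 62 genes (3.23%) beside 6.13% of all genes, and no gene had both strains outside all 28 others on the same side (0.429% of all genes). The mean of both strains was higher for 45 genes (72.6%) and lower for 17, beside 65.2% of all genes higher, and the median of all genes was itself shifted by 0.04. With every array centred on its median the split was 36 and 26. In 29 of the 62 genes (46.8%) both strains lay on the same side of the other strains' mean, beside 52.2% of all genes.

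Unc5c, a netrin receptor of the repulsive kind, had the smallest p. Its log2 intensity was 9.61 with fluoxetine and 9.47 on water in BTBRT T(+) tf/J and 9.31 and 9.18 in I/LnJ, while the other strains had means of 8.77 to 9.25 with a median of 9.01. BTBRT T(+) tf/J thus ranked highest of 30, and I/LnJ lay just below 129S1/SvImJ at the top of the others. The mean of both exceeded that of the others by 0.39 (95% interval 0.19 to 0.60; limma adjusted p = 0.165), and by an exact two-sided permutation test over the 435 pairs of strains p was 0.0046 unadjusted and 0.792 after adjustment over all genes, where the smallest possible unadjusted p is 0.0023. The difference was 0.54 for BTBRT T(+) tf/J alone (limma adjusted p = 0.075) and 0.25 for I/LnJ alone (limma adjusted p = 0.9999). Over the other alternatives it lay between 0.28 (both probe sets averaged) and 0.44 (fluoxetine arrays alone), with limma adjusted p of 0.0528 to 0.85. On the second, dimmer probe set BTBRT T(+) tf/J was again highest (5.63), but I/LnJ had 4.85, below the mean of the others (5.09).

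Sema4d, a semaphorin that acts through Plxnb1, had 8.59 in BTBRT T(+) tf/J and 8.48 in I/LnJ, against 8.06 to 8.70 in the others, a difference of 0.23 (limma adjusted p = 0.749) that was 0.08 for the mean of its probe sets. Epha3 had 8.91 and 8.84, against 7.98 to 9.14 in the others (difference 0.39, 95% interval -0.12 to 0.90). Sema4c was lowest of all strains in BTBRT T(+) tf/J (5.86) but not in I/LnJ (6.45), against 6.06 to 6.72 in the others, and Sema6b was high in I/LnJ (8.63) but not in BTBRT T(+) tf/J (8.27), against 7.96 to 8.65. In both genes the strains lay on opposite sides of the others' mean.

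Plxnb3, a plexin of oligodendrocytes and their lineage, had 8.02 in BTBRT T(+) tf/J and 7.81 in I/LnJ, against 7.66 to 8.59 in the others (difference -0.23; limma adjusted p = 0.919). Its strain means followed the mean of the oligodendrocyte markers over 30 strains with a correlation of 0.82 (Spearman 0.80; 0.78 without P/J and FVB/NJ), given as a description since both come from the same arrays. All 10 oligodendrocyte markers had a lower mean in the mean of both strains (median -0.32, none past the test), and their mean was 10.16 in BTBRT T(+) tf/J and 9.91 in I/LnJ, against 9.66 to 10.87 in the others (median 10.50). Other marker lists were shifted in the mean of both strains too, with none past the test. Olfactory bulb and neuroblast markers were higher in 5 of 5 (median 0.37) and GABA interneuron markers in 7 of 8 (median 0.14). The olfactory bulb and neuroblast mean was 7.99 in BTBRT T(+) tf/J and 7.88 in I/LnJ, against 6.65 to 8.77 in the others (median 6.93). P/J (8.77) and 129S1/SvImJ (7.90) lay above I/LnJ. In I/LnJ this mean was 1.84 higher on the fluoxetine than on the water array, so its level there rested largely on 1 array. Microglia markers were lower in 6 of 8 (median -0.20). The part of all these markers in the levels of Plxnb3 and the other guidance genes was not tested.

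Of 14 genes known for the guidance of callosal axons 13 were measured, and none passed the test. On the probe sets used, 12 lay above the other strains in the mean of both strains and 1 below, beside 65.2% of all genes above. The side depended on the probe set in some genes. Epha4 gave 0.05 on the set used and -0.59 to -0.10 on its others, and Dcc gave 0.03 and, on its second, -0.11. Nrp1 gave 0.07, and 0.08, 0.09 and -0.18 on its others, while the other Efnb1 sets gave 0.19 and 0.02. Of the 12 genes, 4 (Ephb1, Robo1, Dcc and Efnb1) lay above by less than the shift of the median gene. Ntn1 was the one below, through I/LnJ, which had 6.33 with fluoxetine and 6.56 on water and the lowest strain mean (6.45), while BTBRT T(+) tf/J had 7.14, against 6.65 to 7.46 in the others. Its receptor Dcc had 8.91 in BTBRT T(+) tf/J and 9.34 in I/LnJ, against 8.54 to 9.57. On the probe sets used, both strains lay within the range of the others for all the rest, while other probe sets of Epha4, Robo1 and Efnb1 went beyond it.

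Robo1 had 10.09 in BTBRT T(+) tf/J and 9.82 in I/LnJ, against 9.59 to 10.51, and Robo2 had 8.13 and 7.95, against 7.44 to 8.41. The Robo ligands Slit2 (10.71 and 10.96, against 10.46 to 11.18) and Slit3 (7.51 and 7.79, against 7.17 to 7.89) were likewise placed. Sema3a had 8.66 in BTBRT T(+) tf/J and 9.35 in I/LnJ, against 8.28 to 9.46, which put the strains at opposite ends. Sema3c, an attractant of callosal axons, had 10.72 and 10.67, against 10.19 to 10.94, and its co-receptor Nrp1 had 10.05 and 9.99, against 9.45 to 10.43. Neither gene set these strains apart. Ephb1 had 8.42 in BTBRT T(+) tf/J and 7.93 in I/LnJ, against 7.68 to 8.68, so the strains lay on opposite sides of the others' mean. Efnb1 had 7.28 and 7.31, against 6.87 to 7.46, and Efnb3 had 8.30 and 8.17, against 7.81 to 8.47. Efnb1 held 1 repeated value on 20 of 60 arrays, so small differences were not resolved, and on its second probe set I/LnJ was highest (7.36, against 6.33 to 7.32 in the others). On the second probe set of Robo1 BTBRT T(+) tf/J was highest (7.26, against 6.03 to 7.17). The 95% interval of the difference of both strains was -0.37 to 0.42 for Dcc.

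Epha4, a receptor of ephrins of both classes, differed between its 5 probe sets. On the brightest, BTBRT T(+) tf/J had 12.51 and I/LnJ 12.78, against 12.25 to 12.88 in the others. On 3 of the other probe sets BTBRT T(+) tf/J was lowest of the 30 strains. The first gave 9.62 with fluoxetine and 10.46 on water in BTBRT T(+) tf/J, against strain means of 10.51 to 11.65 in the 28 others, the second 9.33 and 9.94, against 9.96 to 11.00, and the third 8.06 and 8.54, against 8.48 to 9.68. The BTBRT T(+) tf/J strain mean was thus 1.24, 0.96 and 0.92 below that of the others. I/LnJ, with 11.34, 10.60 and 9.17, lay among the others on all of these. The remaining probe set had 10.51 in BTBRT T(+) tf/J and 10.54 in I/LnJ, against 10.19 to 11.13. Over 30 strains the other probe sets correlated with the brightest at 0.07 to 0.29. These probe sets were singled out after their values were seen, so no test is given, and why they disagree was not tested.

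**Figure D4:**
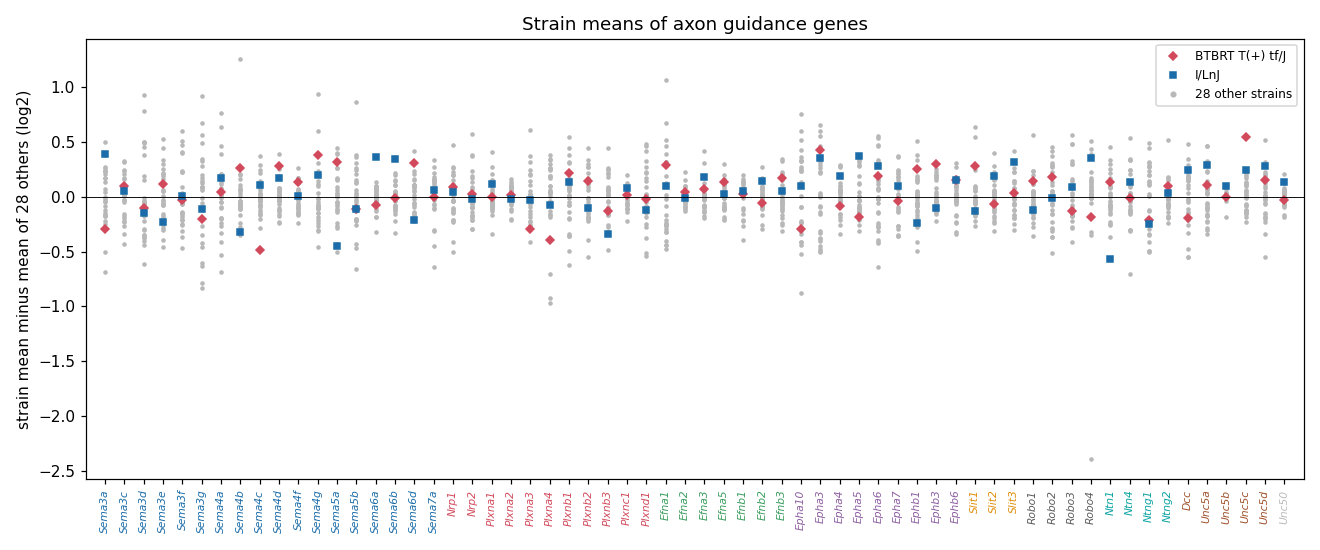
Strain means of the 62 axon guidance genes on the log2 scale, each as the difference from the mean of the 28 other strains (grey points), with BTBRT T(+) tf/J as diamonds and I/LnJ as squares. Unc5c is the gene in which BTBRT T(+) tf/J, at 9.54, lies farthest above the mean of the other strains, and the low grey point of Robo4 is C58/J.

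The fluoxetine response of BTBRT T(+) tf/J and I/LnJ was compared with that of the 28 others as the difference of the within-strain differences. None of the 62 genes passed the test (limma adjusted p under 0.05), beside 0.0421% of all genes, and 5 (8.06%) had an unadjusted p under 0.05 beside 6.59% of all genes. Sema4g, a membrane-bound class 4 semaphorin, stood first. It had 8.16 with fluoxetine against 7.43 on water in BTBRT T(+) tf/J, and 7.93 with fluoxetine against 7.28 on water in I/LnJ, so the within-strain differences were 0.74 and 0.65. The others ran from -0.83 to 0.39 with a median of -0.05, and 11 of the 28 were above 0, so both strains lay above every other one. How many of all genes had both strains beyond the 28 others in the response was not counted. The response difference was 0.75 (95% interval 0.40 to 1.10; limma adjusted p = 0.101). With no filter on low values it passed (limma adjusted p = 0.0258). Each strain's response rests on 1 pair of arrays.

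Efnb2 had responses of 0.26 in BTBRT T(+) tf/J and 0.22 in I/LnJ, against -0.23 to 0.21 in the others (limma adjusted p = 0.515). Ephb3, a receptor of B-type ephrins, had -0.48 and -0.24, against -0.34 to 0.45 (limma adjusted p = 0.538). Sema3d had 0.42 and 0.68, against -0.66 to 0.79, Sema6a had 0.25 and 0.27, against -0.66 to 0.37, and Sema3c had 0.16 and 0.26, against -0.67 to 0.20. Of these 5 genes, Efnb2 had both strains beyond all others, on its brightest probe set, again without a count over all genes. Its response difference was 0.23 there and 0.0016 for the mean of its probe sets. The same choice gave 0.09 in place of 0.28 for Sema6a, 0.03 in place of 0.24 for Sema3c and 0.28 in place of 0.63 for Sema3d. In I/LnJ the olfactory bulb and neuroblast markers differed by 1.84 and the meninges markers by 0.75 between fluoxetine and water, and their part in these responses was not tested.

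Genes that carry guidance signals inside the cell and other guidance cues gave no call with fluoxetine. They also gave none for BTBRT T(+) tf/J with I/LnJ against the others or in the response difference. Between strains 33 of 38 effectors and 21 of 24 cues differed, beside 88.3% of all genes. Of 41 listed effectors 38 were tested, 22 higher and 16 lower with fluoxetine, and of 25 other guidance and adhesion cues 24 were tested, 11 higher and 13 lower, none past the test. Gpc1, a heparan sulphate proteoglycan that binds Slits, gave 0.22 (higher in 26 of 30; limma adjusted p = 0.0764). Ngef, the exchange factor ephexin that links Eph receptors to RhoA, gave -0.09 (limma adjusted p = 0.102), Rnd1, a GTPase that binds plexins, gave -0.23 (limma adjusted p = 0.141), and Lrrc4, a postsynaptic partner of netrin-G2, gave -0.10 (limma adjusted p = 0.141).

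Between BTBRT T(+) tf/J with I/LnJ and the others, Mical3, of the family of enzymes that oxidise actin downstream of plexins, was 9.90 and 9.61, against 9.27 to 9.72 in the other strains (difference 0.28; limma adjusted p = 0.215). With BTBRT T(+) tf/J alone the difference was 0.43 and passed (limma adjusted p = 0.0494), with I/LnJ alone it was 0.13. L1cam, an adhesion molecule of growing axons, was 12.43 and 12.33, against 12.03 to 12.40, and Limk1, the kinase of cofilin, was 9.75 and 9.61, against 9.14 to 9.70 (difference 0.23, and 0.06 for the mean of its probe sets). BTBRT T(+) tf/J exceeded all others in each of these genes, and I/LnJ did not. Lrrc4 was lowest in BTBRT T(+) tf/J (10.36) and 10.71 in I/LnJ, against 10.49 to 10.89. In the response difference Vav3, Rnd1, Abl2 and Mical1 had the smallest p, with 0.68, -0.77, 0.18 and 0.70 and limma adjusted p of 0.387 to 0.715; that of Mical1 was 0.30 for the mean of its probe sets.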

How the data were processed

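Cortical RNA was measured on 60 Affymetrix arrays, 30 strains with 1 fluoxetine and 1 water array each. The authors deposited linear intensity values of probe sets, and the submitters' processing notes name GCRMA, without a version. The linear scale was read from the values (4.21 to 72334), which were set to log2 without a pseudocount, and between 27.8% and 29.4% of probe sets per array lay at the floor of 2.07. GCRMA compresses low values. Scan dates and batches are not given in the sources used here. The number of arrays limits the precision.

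Of 45101 probe sets 34945 carried 1 gene symbol of the platform annotation, 932 several and 9160 none. Each gene was its brightest probe set with that symbol alone. All 71 symbols of guidance genes were unchanged in the RefSeq table, and 48 genes had several probe sets. Tests used limma 3.58.1 (lmFit, eBayes) in R 4.3.3 over 11886 genes, two-sided, with Benjamini-Hochberg adjustment at 0.05: fluoxetine against water with strain as a block, since both arrays of a strain share the strain, the strain F-test in that fit, and BTBRT T(+) tf/J with I/LnJ against the other strains on strain means and on within-strain differences. The pairing was checked: 30 of 30 strains matched best with themselves. The fits were tested on simulated data.

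Members and gene lists were chosen with earlier results of these data known. Named genes were, per comparison, the 6 with the smallest p where none passed, the 12 widest and 6 narrowest strain ranges, the brightest gene of each role, the callosal guidance genes and the 4 smallest p of the other pathway lists. Further genes and probe sets were named after their values were seen. Alternatives covered probe set choice, filter, pseudocount of 16, scaling, block, variance model and left-out strains.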

Additional observations from a re-analysis of the deposited data

How the results depend on the processing

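No member passed the fluoxetine test, or the test of BTBRT T(+) tf/J with I/LnJ against the others, under any alternative run. Without the strain as replicate block the fluoxetine test gave 0 calls, and its count at an unadjusted p under 0.05 was 4 in place of 18. Leaving out 1 strain at a time gave 0 to 0 calls with fluoxetine and 54 to 58 for strain differences (56 with all strains, 53 to 56 under the other settings). Shares of all genes were not counted under these alternatives, so the changed counts are not set against the whole array. With no filter on low values the response difference called 1 of 71 members, Sema4g, in place of 0. In the comparison of both strains with the others, Sema4c was -0.49 with BTBRT T(+) tf/J alone but 0.11 with I/LnJ alone, and Sema6b was -0.014 with BTBRT T(+) tf/J alone but 0.34 with I/LnJ alone. The Sema4a, Sema3a, Sema3g and Epha10 differences kept their sign in every fit, with adjusted p between 0.0578 and 0.149 when 1 strain was left out. Averaging the probe sets of each gene moved several values by over 1.5 times, among them the strain ranges of Ntn4, Plxna4 and Sema3d and the response differences of Efnb2, Sema6a, Sema3c and Sema3d. For Ntn4 and Plxna4 the other probe set was dim (mean log2 intensity 2.27 and 3.66), so averaging by itself narrowed the range. Low intensities limit Sema3f, Sema3g, Unc5b and, in C58/J, Robo4. With 2 strains in a group and 1 array per strain and treatment, differences of the size of the spread between strains could not be detected.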
